A study of Mus musculus with 36 samples.

Results

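Rods isolated from the mouse retina at postnatal day 10 (P10, 4 libraries) were compared with rods isolated at postnatal day 6 (P6, 3 libraries) by RNA sequencing. The comparison takes in every library of these 2 ages, 7 of the 33 libraries in the series' expression table and of the 36 samples listed, and no library was chosen by its values. P10 replicate 4 stood apart from the other P10 libraries, so results are given with it and, where the difference matters, without it. Both groups came from the same strain, Nrl-GFP, in which green fluorescent protein is driven by the promoter of the rod transcription factor Nrl, and the labels say that cells were sorted by reporter expression. The labels also give rods the growth and chemical treatment text of the fibroblasts, word for word as for every other sample, and do not say that it applied to rods. The series as a whole concerns fibroblasts reprogrammed with chemicals to photoreceptor-like cells, and the rods served in it as a developmental scale. By the labels they were reused from older samples, although none is listed for P10 replicate 3. The labels do not say whether libraries of 1 age came from separate animals, so p-values measure the spread between these libraries, which may be technical.

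Rods are the photoreceptors of dim light. In the mouse most of them leave the cell cycle around birth, and in the following weeks they grow a modified cilium, the outer segment, which is packed with discs that carry the proteins of phototransduction. Over the same period they build a ribbon synapse, take on a high demand for energy and close down the genes of dividing and newly born neurons. The transcription factors CRX, NRL and NR2E3 act on the promoters of many rod genes, CRX through the core letters TAATCC.

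To show the start regions of genes that moved in opposite directions, the promoters of Slc24a1 and Gngt1, 2 rod genes that were higher at P10, and Sox11, a gene of immature neurons that was lower, are given here from RefSeq (GRCm38.p6), from 250 bases before to 50 bases after the start, 5′ to 3′ on the gene's own strand. They lie at chr9:64951571-64951870 on the minus strand, chr6:3993758-3994057 on the plus strand and chr12:27342669-27342968 on the minus strand. Capitals mark TAATCC or its reverse complement GGATTA, and TGCTGA or TCAGCA, letters found in NRL binding sites. Gnat1 and Guca1b were not matched in the promoter table.
Slc24a1: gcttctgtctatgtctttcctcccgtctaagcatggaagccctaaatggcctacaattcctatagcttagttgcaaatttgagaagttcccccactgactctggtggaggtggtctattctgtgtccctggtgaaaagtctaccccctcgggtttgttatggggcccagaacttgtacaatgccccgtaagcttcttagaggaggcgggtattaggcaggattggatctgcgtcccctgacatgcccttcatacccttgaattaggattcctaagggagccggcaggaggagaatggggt
Gngt1: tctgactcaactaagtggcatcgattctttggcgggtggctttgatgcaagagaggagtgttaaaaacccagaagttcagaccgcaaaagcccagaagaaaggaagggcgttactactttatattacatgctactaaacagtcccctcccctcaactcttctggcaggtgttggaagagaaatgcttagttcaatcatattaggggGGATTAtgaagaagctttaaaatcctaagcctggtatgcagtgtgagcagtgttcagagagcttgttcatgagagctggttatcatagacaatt
Sox11: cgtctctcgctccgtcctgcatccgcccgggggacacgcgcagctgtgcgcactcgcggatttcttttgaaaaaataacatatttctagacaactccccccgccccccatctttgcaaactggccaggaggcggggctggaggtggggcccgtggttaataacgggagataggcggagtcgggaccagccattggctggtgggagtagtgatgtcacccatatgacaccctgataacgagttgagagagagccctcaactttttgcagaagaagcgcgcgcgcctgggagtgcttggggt
The Gngt1 window holds 1 match, GGATTA at -44 from the start, and the other windows hold 0.

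Among the 38 genes of the lists for rod phototransduction and for the outer segment, 27 had a promoter of this length in the table, and 11 of these 27 (40.7%) held TAATCC on either strand. The share was 8.14% over 27025 genes with a promoter, 7.17% over 10014 tested genes, 10.9% over 752 genes called higher at P10 and 5.58% over 825 genes called lower. TGCTGA was found in 5 of the 27 (18.5%), against 21.7% over all genes with a promoter. Of the 11 genes 8 were called higher at P10, and Adgrv1 (0.48), Guca1a (0.89) and Mak (0.39) were not called. In the whole lists, with or without the motif, 20 of 21 phototransduction genes and 10 of 17 outer segment genes were called higher. The motif shares are counts of letters, and neither they nor these shares of calls were tested. Cngb1 and Gucy2f each held another match, at -58 and -84 from the start, that is not shown. Cnga1, Gnb5 and Gngt1 also held a match and were called higher. For 5 of the 8 genes with a match that were called higher, 1 match each stood as follows, with 8 bases on either side and the motif in capitals.
Sag: gaggtttaGGATTAaaaaaaaa
Cngb1: gtgccaatTAATCCtggctggg
Gucy2e: gcttggagGGATTAagggctgc
Gucy2f: ctaaatccTAATCCaggtcttg
Unc119: ctgtttctGGATTAccaggcct
The Sag window lies at chr1:87803585-87803606, that of Cngb1 at chr8:95306597-95306618, that of Gucy2e at chr11:69237051-69237072, that of Gucy2f at chrX:142196982-142197003 and that of Unc119 at chr11:78345458-78345479.

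Values were the authors' normalized CPM. The reads behind a value are not known, so neither is the depth. Column sums ran from 870720 to 1388994 in P10 libraries, against 781491 to 835398 in P6 libraries. In a principal component analysis of 13159 genes the first component took 68.4% of the variance. P10 replicates 1 to 3 lay at 44.2 to 58.9 on it and P10 replicate 4 at 0.589, against -53.6 to -49.6 for the P6 libraries. The second component (13.9%) placed P10 replicate 4 at -51.1, and the other 6 libraries at -2.19 to 17.3. Of the 2966 genes called without P10 replicate 4, this library lay between the P6 mean and the mean of the other P10 libraries for 2135 (72.0%). These genes were chosen by a fit that left it out, and no such share was computed for the other P10 libraries. The share alone therefore does not set this library apart. P10 replicate 4 also differed by transcript length. Genes with a longest transcript under 1000 bases had a median difference of -0.96 on the log2 scale between P10 replicate 4 and the other P10 libraries, and those of 5000 bases or more a median difference of 0.34. The rod markers Nrl, Nr2e3 and Sag were present in all 7 libraries, with Nrl at 1697 CPM or more at P10 and at 1230 CPM or more at P6.

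Rods at P10 had more RNA of many genes of phototransduction, the outer segment, the synapse and the respiratory chain, and less of many genes of dividing cells, Notch signalling and young neurons. Of 15289 genes, 13159 reached at least 1 CPM in at least 3 of the 7 libraries and were tested with limma on log2(CPM + 1). A gene was called at a Benjamini-Hochberg adjusted p under 0.05 with a change of at least 1 on that scale, which understates the change of genes near 0 CPM. By this rule 1009 genes (7.67%) were higher at P10 and 1105 (8.4%) were lower. Without P10 replicate 4 the numbers were 1452 (11.2%) and 1514 (11.7%) of 12994 genes, 981 genes were called higher and 1071 lower in both fits, and 0 changed direction. At a change of at least 4-fold, 172 genes (1.31%) were higher and 167 (1.27%) lower, 2.58% in all. The median change of all genes tested was -0.06.

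**Figure D1:**
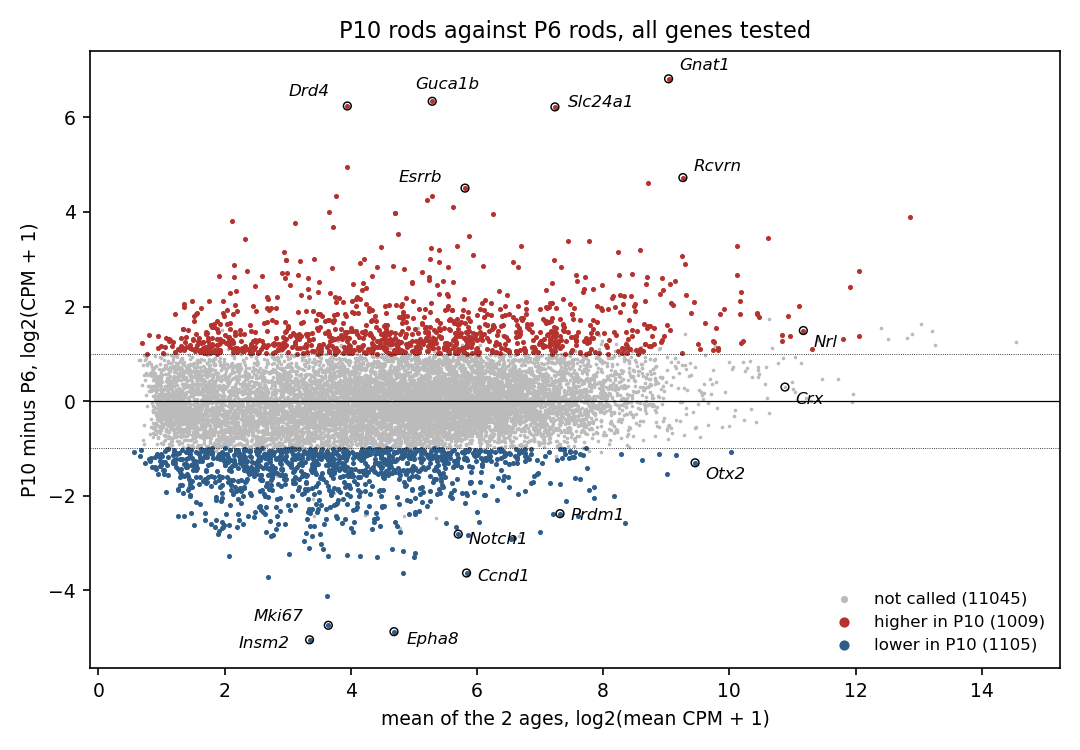
Change of each of 13159 genes between P10 and P6 rods (P10 minus P6, log2(CPM + 1), vertical axis) against the mean of both ages (horizontal axis, log2). Red points are the 1009 genes called higher at P10, blue points the 1105 called lower and grey points the rest; dotted lines mark a change of 1. Gnat1, Guca1b, Drd4 and Slc24a1 lie above 6, and Insm2, Epha8 and Mki67 lie lowest.

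The division between higher and lower calls moved with equal column sums. With every column set to the same sum, 452 genes were called higher and 2455 lower, so that 15.6% of calls were higher, against 47.7% as deposited. The median of all genes then stood at -0.48. With the mitochondrial genes removed first, 548 were higher and 2150 lower, 20.3% of calls. Higher calls were 51.1% of calls after quantile normalization and 52.4% after median-of-ratios scaling. Changes below are on the deposited scale. Counts after setting equal column sums are given where they moved a list's calls by over 1.5 times, apart from the following. Mitochondrially encoded genes and red blood cell markers then had 0 called higher instead of 1. Endothelium and lens markers each had 0 higher and 1 lower instead of 1 and 0. In the retinoid cycle 1 was called lower instead of 0.

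Genes of rod phototransduction rose almost as a body: 20 of 21 were called higher and 0 lower, against 7.67% of all genes tested called higher, with a median change of 2.54, or 2.72 without P10 replicate 4. Their summed level was 95790, 117500, 97940 and 44380 CPM in P10 libraries 1 to 4, against 10730, 9859 and 12330 CPM in P6 libraries 1 to 3. Every P10 library was above every P6 library, for this sum and for each of the 21 genes, as for 16.4% of all genes tested, and P10 replicate 4 had the lowest sum of its age. The exact permutation test over the 7 libraries gave p = 0.0571, the smallest two-sided value that 35 ways of dividing them allow. Under equal column sums 19 members were still called higher.

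The transducin alpha subunit Gnat1 (chr9:107674474-107679712, GRCm38, GENCODE M21 annotation), which passes the light signal to the phosphodiesterase, rose more than any other gene tested. It was at 7291, 7327, 7661 and 1682 CPM at P10, against 43.9, 36.2 and 55.2 CPM at P6, a change of 6.82 ± 0.50 (SE, adjusted p = 2.70e-05). P10 replicates 1 to 3 were close together and P10 replicate 4 was far below them, yet well above P6; without it the change was 7.35. The transducin beta and gamma subunits changed less, Gnb1 by 2.41 and Gngt1 by 3.29.

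The subunits of the rod phosphodiesterase, which breaks down cGMP, all rose. The catalytic subunit Pde6a was at 2426, 2788, 2548 and 844 CPM at P10, against 76.2, 58.5 and 108 CPM at P6, a change of 4.62 ± 0.41 (SE, adjusted p = 6.09e-05). Its partner Pde6b was at 3782, 4337, 3877 and 2647 CPM at P10, against 892, 969 and 1283 CPM at P6. The change of Pde6b was 1.80 ± 0.30 (SE, adjusted p = 0.00185), and 0.87, under the fold threshold, after quantile normalization. The inhibitory subunit Pde6g averaged 5631 ± 3074 CPM at P10 and 432 ± 45.9 CPM at P6 (SD, n = 4 and 3). The cGMP-gated channel subunits rose as well, Cnga1 by 2.53 and Cngb1 by 1.94.

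Proteins that end the light response and set its calcium feedback held the other large changes. Recoverin, a calcium sensor of photoreceptors (Rcvrn), was at 3598, 5024, 3771 and 1098 CPM at P10, against 127, 91.6 and 115 CPM at P6, a change of 4.73 ± 0.45 (SE, adjusted p = 9.42e-05). Arrestin (Sag), which helps to end the light response, was at 12230, 15130, 12470 and 5586 CPM at P10, against 1672, 1460 and 1609 CPM at P6, a change of 2.75 ± 0.42. The photoreceptor kinase Grk1 averaged 1107 ± 178 CPM at P10 and 277 ± 94.9 CPM at P6, a change of 2.03. The complex that speeds up transducin's shutoff moved by similar amounts, Rgs9 by 2.06, its anchor Rgs9bp by 2.54 and Gnb5 by 2.05.

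Of the calcium sensors of guanylate cyclase, 1 passed the call. Guca1b (chr17:47385393-47392967), which encodes GCAP2, was at 425, 484, 501 and 108 CPM at P10, against 3.04, 3.28 and 2.78 CPM at P6, a change of 6.34 ± 0.47 (SE, adjusted p = 2.70e-05). Guca1a, which encodes GCAP1, averaged 22.3 ± 4.71 CPM at P10 and 11.6 ± 2.55 CPM at P6 and was the 1 member not called, with a change of 0.89 (adjusted p = 0.0143). The difference between the 2 changes was not tested. The cyclases themselves rose, Gucy2e by 1.95 and Gucy2f by 3.28. Slc24a1 (chr9:64922861-64951607), the rod exchanger that expels calcium, was at 1698, 1604, 1528 and 544 CPM at P10, against 14.1, 12.04 and 21.6 CPM at P6, a change of 6.22 ± 0.39 (SE, adjusted p = 1.38e-05). The least moved of the called members was phosducin (Pdc), which binds transducin beta and gamma, at 1.32.

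**Figure D2:**
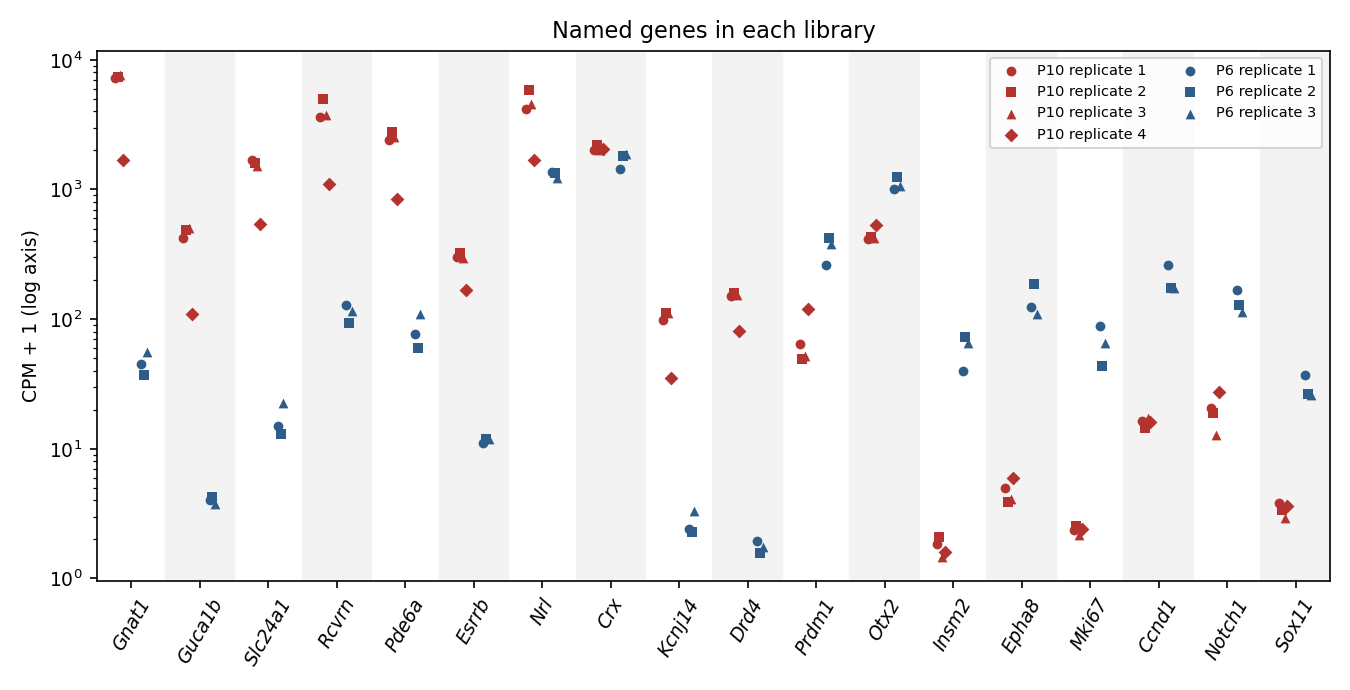
CPM + 1 (log axis) of 18 named genes in each library, with the 4 P10 libraries in red left of the 3 P6 libraries in blue and the replicate number shown by the symbol. P10 replicate 4 (diamonds) is the lowest P10 library for the rod genes from Gnat1 to Nrl and for Kcnj14 and Drd4, and the 2 ages overlap for none of the 18 genes.

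Outer segment structure followed with smaller changes. Of 17 members, 10 were called higher and 0 lower, with a median change of 1.38 and summed levels of 29020, 32570, 29350 and 22390 CPM at P10, against 9324, 10100 and 13250 CPM at P6. Under equal column sums 8 were higher, and after quantile normalization 5, at a median of 0.71. The actin-bundling protein of photoreceptors Fscn2 was at 82.5, 99.5, 86.3 and 22.8 CPM at P10, against 4.93, 5.69 and 6.83 CPM at P6, a change of 3.25 ± 0.44 (SE, adjusted p = 0.000618). The matrix proteoglycan Impg1 rose by 2.67 and the disc rim protein peripherin (Prph2) by 2.01. The axoneme protein Rp1 was not called, at 3378 ± 1182 CPM at P10 and 2399 ± 687 CPM at P6, and neither were Mak, Spata7, Impg2, Prom1 and Adgrv1.

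In the retinoid cycle, which regenerates the chromophore used in vision, 5 of 10 members rose and 0 fell (median 1.07). The outer segment retinol dehydrogenase Rdh8 was at 124, 144, 121 and 98.0 CPM at P10, against 14.8, 12.5 and 22.5 CPM at P6, a change of 2.83 ± 0.22 (SE, adjusted p = 3.44e-05). The retinal flippase Abca4 rose by 2.59, the inner segment dehydrogenase Rdh12 by 2.22 and Dhrs3, another retinal reductase, by 2.11. For these 4 genes P10 replicate 4 stayed near the other P10 libraries. Rdh12, for example, was at 591, 633, 636 and 573 CPM at P10, against 98.0, 124 and 180 CPM at P6. The whole list was lowest in P10 replicate 4 among P10 libraries. It summed to 10070, 11650, 9723 and 5363 CPM at P10, against 2538, 2993 and 3854 CPM at P6.

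The transcription factors of photoreceptors went both ways, 3 of 13 called higher and 3 lower (median 0.30). The sign of this median turned with the scaling, to -0.60 after quantile normalization, with 2 higher and 4 lower, and to -0.17 under equal column sums, with 2 and 3. Esrrb, an orphan nuclear receptor needed for rod survival in mice, was at 302, 320, 297 and 165 CPM at P10, against 10.1, 10.9 and 10.8 CPM at P6, a change of 4.50 ± 0.23 (SE, adjusted p = 7.23e-06). Nrl was at 4149, 5848, 4523 and 1697 CPM at P10, against 1364, 1348 and 1230 CPM at P6. Its change of 1.49 ± 0.42 (SE) had an adjusted p of 0.0240, the call was lost when any of the other 6 libraries was left out (adjusted p 0.0545 to 0.0801), and without P10 replicate 4 the change was 1.87 with an adjusted p of 3.82e-05. Mef2c rose by 1.11 (adjusted p = 0.0367), with groups that overlapped.

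CRX and NR2E3, which act beside NRL, had little change. Crx was at 2032, 2219, 2028 and 2060 CPM at P10, against 1443, 1813 and 1861 CPM at P6, and Nr2e3 at 2217, 2834, 2293 and 2041 CPM, against 1795, 2001 and 1491 CPM. Their changes of 0.30 and 0.41 were not called (adjusted p = 0.390 and 0.270), and both turned negative under quantile normalization and under equal column sums. Prdm1, which holds back bipolar fate in newborn rods, was at 63.5, 48.2, 51.2 and 120 CPM at P10, against 261, 423 and 378 CPM at P6, a change of -2.38 ± 0.31 (SE, adjusted p = 0.000525). Otx2, which starts the photoreceptor programme, was at 411, 428, 421 and 527 CPM at P10, against 1005, 1253 and 1054 CPM at P6, a change of -1.30. Neurod1, a neuronal differentiation factor kept in photoreceptors, changed by -1.07. The fall of these 3 held with and without P10 replicate 4.

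At the synapse 7 of 22 tested members rose and 0 fell (median 0.79); without P10 replicate 4 it was 11, a difference of over 1.5 times. Complexin 4 (Cplx4), a regulator of vesicle fusion at ribbons, was at 636, 731, 612 and 316 CPM at P10, against 49.2, 46.8 and 59.1 CPM at P6, a change of 3.39 ± 0.28 (SE, adjusted p = 4.32e-05). The vesicular glutamate transporter Slc17a7 was at 2065, 2261, 2157 and 836 CPM at P10, against 181, 183 and 245 CPM at P6, a change of 3.08. Rims2, an active zone protein, rose by 1.96, and the ribbon synapse syntaxin Stx3 by 1.84. The calcium channel subunits Cacna1f and Cacnb2 rose by 1.38 and 1.69. The scaffold genes Bsn and Pclo were not called, at 34.8 ± 9.99 CPM at P10 and 38.5 ± 6.37 CPM at P6 for Bsn, and neither was the ribbon gene Ctbp2 (0.33).

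Among ion channels and pumps 5 of 11 rose and 0 fell (median 0.86). Kcnj14, an inward rectifier potassium channel, was at 97.5, 110, 110 and 33.8 CPM at P10, against 1.42, 1.26 and 2.29 CPM at P6, a change of 4.94 ± 0.39 (SE, adjusted p = 3.49e-05). Kcnv2, a potassium channel subunit of the inner segment, rose by 1.61, and the chloride exporter Slc12a5 by 1.53.

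Of 32 genes of ciliary transport and the transition zone, 8 rose and 0 fell, with a median of 0.69, but 1 was called under equal column sums and 5 after quantile normalization. Arl3, the GTPase that releases lipid-anchored cargo in the cilium, was at 351, 478, 362 and 113 CPM at P10, against 72.1, 48.1 and 48.8 CPM at P6, a change of 2.36 ± 0.42 (SE, adjusted p = 0.00290). Its partner Pde6d, the carrier of prenylated proteins, rose by 1.24. The BBSome subunits Bbs7 and Ttc8 rose by 1.46 and 1.25. The transition zone genes Cep290, Rpgr and Rpgrip1 were not called, with changes of -0.11, -0.58 and 0.08.

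RNA of the mitochondria separated P10 replicate 4 from the other P10 libraries. The 13 genes encoded in mitochondrial DNA summed to 149500, 265500, 132700 and 33650 CPM at P10, against 72710, 34180 and 37570 CPM at P6. They took 12.9, 19.1, 11.8 and 3.87% of each P10 library, against 8.91, 4.37 and 4.50% of each P6 library (exact permutation p = 0.229). With all libraries 1 of 13 was called higher, at a median of 1.41. This was mt-Atp8 (1.78, adjusted p = 0.0403), whose groups overlapped and whose call was lost without any 1 of P6 replicates 2 and 3 and P10 replicates 1, 2 and 3 (adjusted p 0.0689 to 0.165). Without P10 replicate 4 all 13 were called higher, at a median of 1.98. For mt-Co2, a subunit of cytochrome oxidase, the values were 18540, 27830, 13790 and 1982 CPM at P10, against 9025, 3207 and 1528 CPM at P6. P6 replicate 1 was the highest library of its age for mt-Co2. Leaving it out along with P10 replicate 4 gave a change of 3.12. The median of the list was 0.20 under quantile normalization.

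Nuclear genes of the respiratory chain moved the same way with more calls: 15 of 25 tested members rose and 0 fell (median 1.21), and 20 rose without P10 replicate 4. They summed to 11600, 16480, 13050 and 5120 CPM at P10, against 4709, 4814 and 4850 CPM at P6. Every P10 library was above every P6 library for 8 of the 25 members, as for 16.4% of all genes tested. The ages therefore overlapped for several of the 15 called members. Ndufa4, a small subunit of the chain, was at 1174, 1842, 1265 and 310 CPM at P10, against 221, 186 and 189 CPM at P6, a change of 2.27 ± 0.50 (SE, adjusted p = 0.00822). Cox6c, Ndufa1 and Ndufb3 rose by 1.99, 1.95 and 1.82, and all 3 calls were lost without P6 replicate 3 (adjusted p 0.0628, 0.0912 and 0.0509). Cox6c also lost its call without P6 replicate 2 (0.0565), and Ndufa1, whose groups overlapped, without P6 replicates 1 or 2 or P10 replicates 1 or 3 (0.0507 to 0.0673). Larger subunits such as Ndufs1 (0.19), Sdha (0.67) and Uqcrc2 (-0.09) were not called. The list has a median longest transcript of 1735 bases, against 3580 bases over all genes tested, and P10 replicate 4 was low in short transcripts. The part of transcript length in the result was not tested beyond removing its trend, after which Ndufa4 changed by 1.91, Cox6c by 2.05, Ndufb3 by 1.20 and Ndufa1 by 0.98. Under equal column sums 8 members were called higher.

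**Figure D3:**
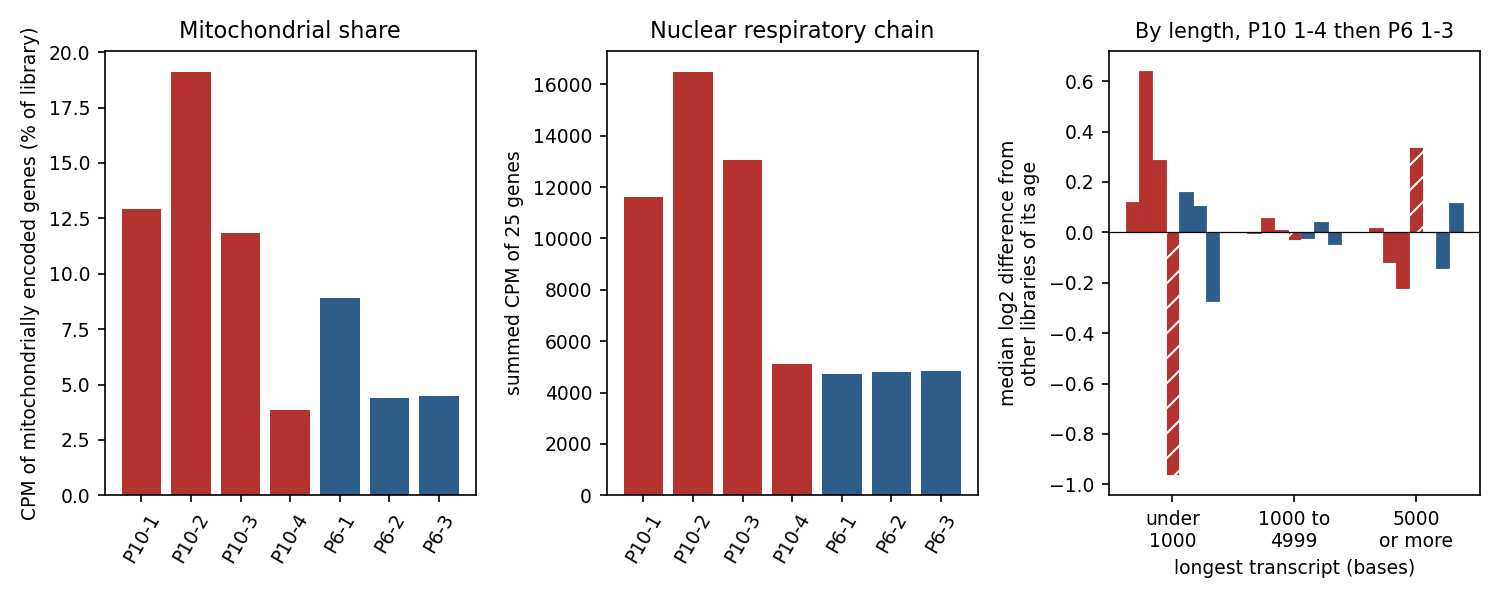
Views of the 7 libraries, P10 in red left of P6 in blue. Left, percent of each library's CPM from mitochondrially encoded genes; middle, summed CPM of nuclear respiratory chain genes; right, median log2 difference of each library from the others of its age by longest transcript length, with P10 replicate 4 hatched. P10 replicate 4 has 3.87% mitochondrial CPM and a median of -0.96 for transcripts under 1000 bases.

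Glycolysis and lactate handling, on which photoreceptors rely, had 8 of 21 members higher and 0 lower (median 0.70), and 4 higher under equal column sums and 5 after quantile normalization. Slc16a1, which carries lactate and pyruvate, was at 89.3, 94.3, 98.3 and 71.6 CPM at P10, against 9.82, 16.3 and 11.8 CPM at P6, a change of 2.73 ± 0.20 (SE, adjusted p = 2.70e-05). The hexokinases Hk1 and Hk2 rose by 2.63 and 2.04, and the neuronal enolase Eno2 by 1.48. The glucose transporter Slc2a1 was not called, at 161 ± 24.1 CPM at P10 and 156 ± 21.04 CPM at P6. Of 10 regulators of mitochondrial biogenesis 1 rose, the coactivator Ppargc1b, by 1.53; under equal column sums 2 others were lower.

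Few genes of lipid metabolism were called. Of 18 cholesterol synthesis genes 0 rose and 2 fell, among them the sterol regulator Insig1 (-1.13); 3 fell under equal column sums and 1 after quantile normalization. Of 12 genes of fatty acid elongation and docosahexaenoate handling 2 rose and 2 fell, against 1 and 4 under equal column sums. Adipor1, needed for docosahexaenoate uptake in the retina, was at 692, 834, 714 and 265 CPM at P10, against 128, 124 and 129 CPM at P6, a change of 2.17. Agpat3, which makes phospholipids, rose by 1.13, a call that was lost without any 1 of the P6 libraries or of P10 replicates 1 to 3 (0.97 to 1.16, adjusted p 0.0441 to 0.0724), while the desaturases Scd2 and Fads1 changed by -1.41 and -1.18.

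The cell cycle list fell: 17 of 23 tested members were called lower and 0 higher, against 8.4% of all genes tested called lower, at a median of -1.67. It summed to 219, 246, 220 and 224 CPM at P10, against 575, 464 and 485 CPM at P6, with no overlap. Of its members 20 had every P10 library below every P6 library, as had 19.9% of all genes tested. Mki67, a marker of dividing cells (chr7:135689784-135716361), was at 1.37, 1.54, 1.14 and 1.42 CPM at P10, against 88.2, 42.2 and 64.7 CPM at P6, a change of -4.74 ± 0.25 (SE, adjusted p = 7.23e-06). Top2a, which untangles replicated DNA, was at 1.65, 1.61, 2.57 and 2.09 CPM at P10, against 57.2, 42.0 and 52.5 CPM at P6, a change of -4.11. Rrm2 and Ccnb1 changed by -2.69 and -2.67. Pcna was not called, at 128 ± 20.0 CPM at P10 and 95.4 ± 7.15 CPM at P6. Fewer cells of a type and less RNA per cell cannot be told apart in these bulk libraries, here and below. With P6 replicate 1, the library highest in the list, left out along with P10 replicate 4, 12 members were called lower. Members under 1 CPM in each of P10 replicates 1 to 3, such as Ccnb1, missed the filter in that fit and were not tested. The smaller number therefore does not count lost calls alone.

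All 15 genes of the proneural and Notch list fell, at a median of -1.95. Their sums were 455, 426, 420 and 533 CPM at P10, against 1708, 2097 and 1815 CPM at P6. The receptor Notch1 was at 19.5, 17.8, 11.8 and 26.5 CPM at P10, against 167, 127 and 113 CPM at P6, a change of -2.81. The ligands Dll1 and Dll3 changed by -2.57 and -2.65 and the target gene Hes5 by -2.25. Neurod4, a neuronal bHLH factor, was at 128, 116, 124 and 163 CPM at P10, against 727, 850 and 796 CPM at P6, a change of -2.58. With P6 replicate 1 and P10 replicate 4 both left out, 12 members were called lower. Members under 1 CPM in each of P10 replicates 1 to 3, such as Dll3, were not tested in that fit, so these are not all lost calls.

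Of 18 genes of immature neurons 7 fell and 0 rose, at a median of -0.57. Sox11, a transcription factor of new neurons, was at 2.81, 2.36, 1.90 and 2.64 CPM at P10, against 35.9, 25.4 and 24.8 CPM at P6, a change of -3.10 ± 0.21 (SE, adjusted p = 1.78e-05). Its relative Sox4 was at 53.4, 45.7, 36.4 and 56.6 CPM at P10, against 370, 335 and 287 CPM at P6, a change of -2.77. Stathmin (Stmn1), which destabilises microtubules, and the tubulin Tubb2b changed by -2.42 and -1.97. Map1b, Dpysl3 and Gap43 were not called (0.58, 0.24 and 0.01).

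In the list of chromatin and nuclear lamina genes 5 of 22 fell and 2 rose. Uhrf1, which guides maintenance of DNA methylation at replication, was at 0.428, 0.437, 0.0919 and 0.439 CPM at P10, against 7.85, 6.61 and 5.57 CPM at P6, a change of -2.51. The linker histone H1f0, the heterochromatin protein Cbx5, the methyltransferase Ezh2 and the lamin B receptor Lbr changed by -1.73, -1.59, -1.38 and -1.12. Hmgn1, a nucleosome binding protein, was at 3045, 3470, 2372 and 1053 CPM at P10, against 659, 476 and 447 CPM at P6, a change of 2.12, and the de novo DNA methyltransferase Dnmt3a rose by 1.12, or 0.97 without P6 replicate 2, under the fold threshold. Under equal column sums 8 of the list were lower and 1 higher. Among 19 splicing and RNA-binding regulators 2 were called lower, a share near the 8.4% of all genes tested, and 5 under equal column sums. They were Ptbp1 (-1.26) and its neuronal relative Ptbp2 (-1.07). Without P6 replicate 2 both lost their call (adjusted p 0.0506 and 0.0696), and Ptbp2 also fell short of the fold threshold without P10 replicate 3 (-0.93).

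Among 14 tested genes of apoptosis 3 fell and 1 rose, against 6 and 1 under equal column sums. Bcl2l11 and Apaf1, which promote apoptosis, changed by -1.33 and -1.07, and Apaf1 lost its call without P6 replicate 3, P10 replicate 1 or P10 replicate 3 (-0.89, -0.94 and -0.97). The caspase inhibitor Xiap was at 909, 1041, 773 and 386 CPM at P10, against 243, 190 and 335 CPM at P6, a change of 1.55, with an adjusted p of 0.0524 without P6 replicate 2. Of 14 genes of the unfolded protein response 0 were called in either direction by limma. At an unadjusted p under 0.05, 5 were higher and 3 lower, and without P10 replicate 4 Dnajb9 was called lower (-1.10). Under equal column sums 2 were called lower.

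Immediate early genes, which respond quickly to stimulation and also to cell handling, were lower: 7 of 11 fell and 0 rose, at a median of -1.17. Fos was at 74.8, 73.0, 80.3 and 105 CPM at P10, against 209, 211 and 490 CPM at P6, a change of -1.74, and P6 replicate 3 was the highest library. Fosb and Dusp1 changed by -2.24 and -1.78. How long cells were handled at either age was not analysed here. Of 16 clock genes 1 was called, Dbp, which rose by 1.32, while under equal column sums 0 were higher and 2 lower. Of 12 housekeeping genes 1 was called, Actb, at 545, 351, 376 and 281 CPM at P10, against 933, 888 and 696 CPM at P6, a change of -1.14.

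Several of the largest changes lay outside these lists. The dopamine receptor Drd4 (chr7:141292006-141296464), through which dopamine lowers cAMP in photoreceptors, was at 150, 158, 152 and 80.3 CPM at P10, against 0.937, 0.558 and 0.743 CPM at P6, a change of 6.24 ± 0.25 (SE, adjusted p = 3.87e-06). Pdzph1, Cds1, an enzyme of phosphoinositide synthesis, Cdr2 and the phosphatase Alpl rose by 4.35, 4.33, 4.26 and 4.10, with no overlap between ages. Alpl, for instance, was at 225, 290, 209 and 108 CPM at P10, against 11.5, 7.94 and 12.6 CPM at P6.

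The zinc finger gene Insm2 (chr12:55599427-55602086) fell more than any other gene tested. It was at 0.848, 1.09, 0.475 and 0.591 CPM at P10, against 39.1, 71.3 and 64.2 CPM at P6, a change of -5.05 ± 0.25 (SE, adjusted p = 7.04e-06). The ephrin receptor Epha8 (chr4:136929419-136956816) was at 4.00, 2.88, 3.10 and 4.92 CPM at P10, against 123, 185 and 109 CPM at P6, a change of -4.88. The endothelin converting enzyme Ece1, the MYC relative Mycl and the activin subunit Inhbb changed by -3.64, -3.27 and -3.26. The mitotic genes Pbk and Cenpf changed by -3.28 and -3.27, and Mfap4, a matrix protein, by -3.72.

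Of the genes tested, 6 had a mean under 1 CPM at P6 and of at least 10 CPM at P10. Besides Drd4 these were Aqp4, Opn1mw, Meig1, Sntg2 and Il33, the last of which averaged 10.6 ± 6.55 CPM at P10 and 0.683 ± 0.251 CPM at P6. In the opposite direction there were 7, Insm2, Mfap4, Pbk, Knl1, Ccnb1, Mn1 and Cyyr1. Meig1, Sntg2, Il33, Knl1, Mn1 and Cyyr1 were named after their values were seen.

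Markers of other retinal cells were present at both ages. Of 12 progenitor markers 10 fell and 0 rose (median -1.60), with sums of 379 to 443 CPM at P10, against 837 to 1116 CPM at P6. Ccnd1, the cyclin of retinal progenitors, was at 15.5, 13.4, 16.2 and 15.1 CPM at P10, against 262, 172 and 172 CPM at P6, a change of -3.63 ± 0.19 (SE, adjusted p = 7.23e-06). The part of remaining progenitors in the fall of the cell cycle and Notch lists was not tested.

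Cone markers summed to 694 to 868 CPM at P10, against 908 to 1145 CPM at P6, and of 12 members 1 rose and 2 fell. The green cone opsin Opn1mw was at 15.6, 12.3, 18.6 and 14.7 CPM at P10, against 0.165, 0.186 and 0.106 CPM at P6, a change of 3.81 ± 0.20 (SE, adjusted p = 7.54e-06). The cone transducin gamma subunit Gngt2 was at 36.2, 26.8, 33.1 and 40.0 CPM at P10, against 303, 276 and 206 CPM at P6, a change of -2.90, and the nuclear receptor Rxrg changed by -2.34. Short wave opsin, Opn1sw, did not pass the test, at 102 ± 12.9 CPM at P10 and 103 ± 7.47 CPM at P6.

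Bipolar markers summed to 400 to 484 CPM at P10, against 275 to 346 CPM at P6, with 5 of 11 higher and 2 lower. Trpm1, the cation channel of ON bipolar cells, was at 44.1, 41.1, 41.6 and 41.8 CPM at P10, against 5.90, 5.43 and 9.13 CPM at P6, a change of 2.49. Car8, Pcp2, Gng13 and Cabp5 rose by 2.20, 2.18, 1.80 and 1.71, while the bipolar transcription factors Vsx1 and Lhx4 changed by -1.53 and -1.24. Lhx4 lost its call without P6 replicate 1 (adjusted p = 0.0611), P6 replicate 2 (adjusted p = 0.0589) or P10 replicate 2 (-0.96). No bipolar marker in the list was at 0, and the part of bipolar cells in the synapse genes was not tested.

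Müller glia markers summed to 882 to 1187 CPM at P10, against 840.5 to 1419 CPM at P6, with 1 of 11 higher, the water channel Aqp4 (3.43), and 3 lower, Sox9 (-1.90), Cp (-1.24) and Vim (-1.06). Cp lost its call without P6 replicate 1 (-0.92), and Vim without P6 replicate 1 (-0.93) or P10 replicate 4 (-0.97). Amacrine, horizontal and ganglion markers summed to 172 to 235 CPM at P10, against 170 to 220 CPM at P6, with 3 of 13 higher and 2 lower, against 1 and 3 under equal column sums. Calb2, Nefl and Sncg rose by 1.54, 1.28 and 1.02, while Gad2 and Onecut1 changed by -1.34 and -1.20. Calb2 lost its call without P6 replicate 3 (adjusted p = 0.0659) and Onecut1 without P6 replicate 2 (-0.99). The sums of macrophage, pigment epithelium, red blood cell and lens markers were at most 52.3 CPM in any of the 7 libraries, and those of endothelium markers 117 to 133 CPM at P10, against 160 to 261 CPM at P6. Of 5 tested pigment epithelium markers 1 rose, the carrier Ttr (1.52, adjusted p 0.0557 without P6 replicate 2 and 0.0536 without P6 replicate 3), and 1 fell, the melanin enzyme Tyrp1 (-1.26). Of 7 endothelium markers the receptor Flt1 rose by 1.10, but by 0.97 without P10 replicate 4 and 0.96 without P6 replicate 2, both under the fold threshold. Of 4 red blood cell markers 1 was called, the beta globin Hbb-bs (1.52, adjusted p = 0.0456), at 4.64, 2.39, 7.39 and 4.14 CPM at P10, against 0.0582, 0.256 and 3.86 CPM at P6. Its groups overlapped, and its call was lost without any 1 of P6 replicates 1 and 2 and P10 replicates 1 and 3 (adjusted p 0.0958 to 0.171). Of 3 lens markers 1 rose, the crystallin Cryab (1.04, and 0.99, under the fold threshold, without P6 replicate 2 or P10 replicate 3). Of 9 macrophage markers limma called 0, and 0 had an unadjusted p under 0.05. P6 replicate 1 had by far the highest macrophage sum of its age, at 52.3 CPM, against 10.3 and 10.4 CPM in P6 replicates 2 and 3, and with it and P10 replicate 4 both left out 5 of the 9 were called higher.

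**Figure D4:**
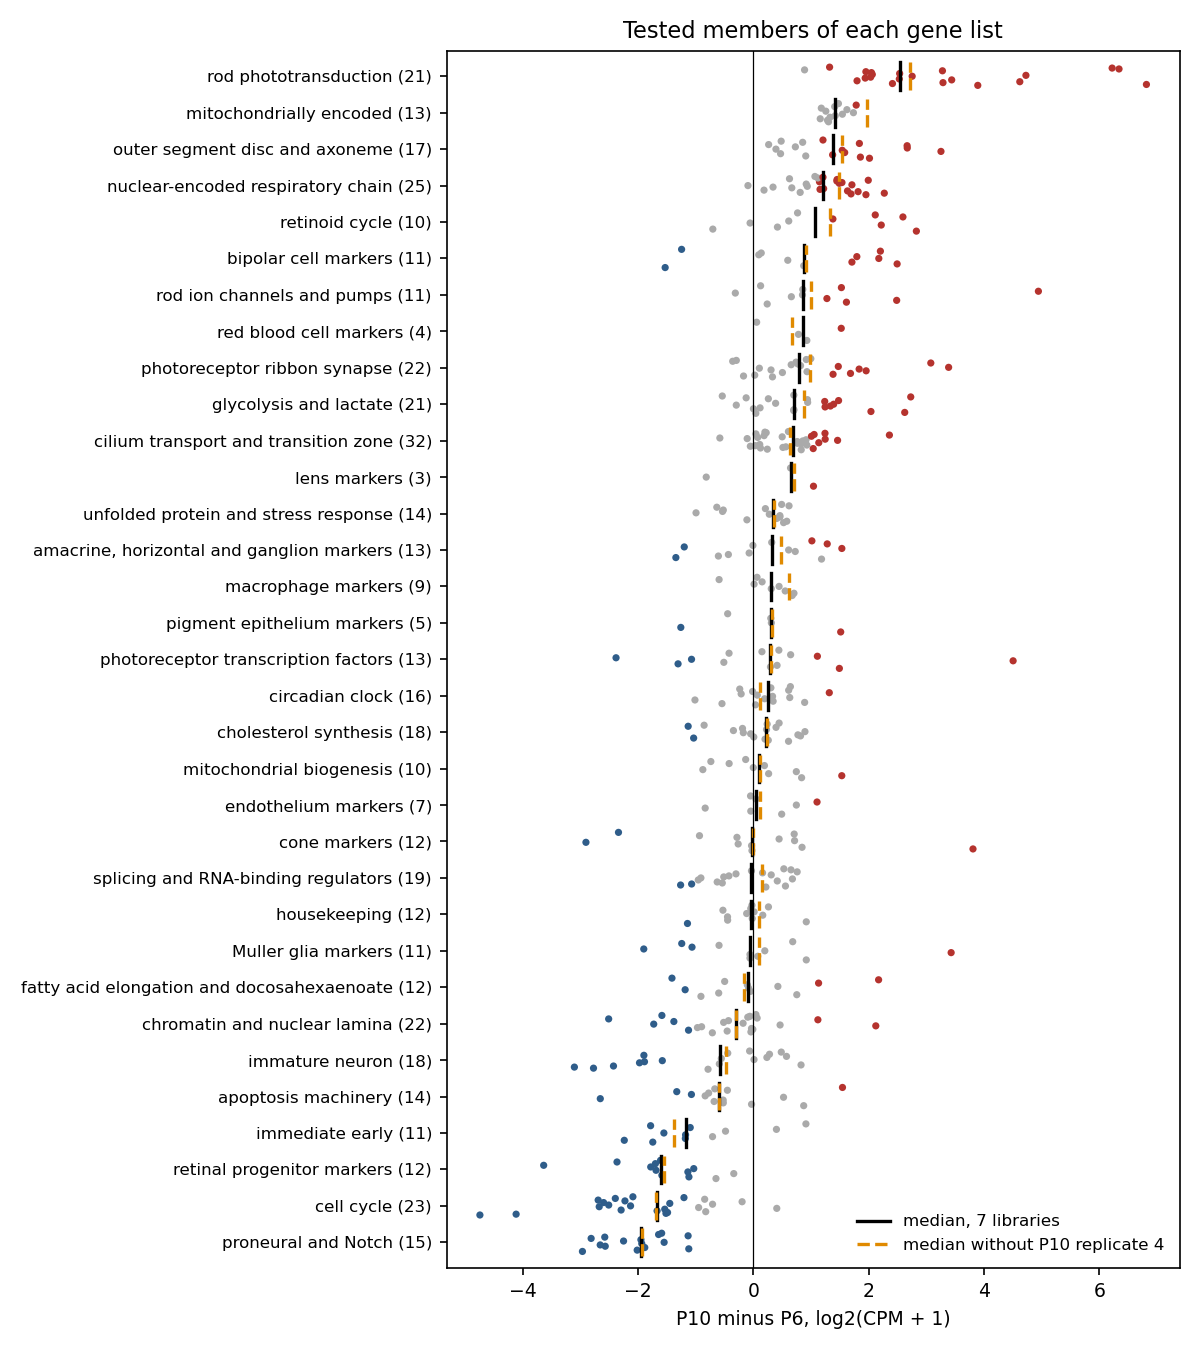
Change of every tested member of each gene list (P10 minus P6, log2(CPM + 1)), with the number tested in brackets and lists ordered by median. Red points were called higher at P10, blue points lower and grey points not called; black bars are medians over 7 libraries and orange dashed bars medians without P10 replicate 4. Rod phototransduction has the highest median (2.54), proneural and Notch genes the lowest (-1.95), and the mitochondrially encoded list moves most between the bars, to 1.98.

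The change between P6 and P10 was next set against 2 other steps of rod development that share no library with it, P14 to P28 and P2 to P4, in a fit of all rods from P2 to P28. These steps differ in length, and P2 and P4 have 2 libraries each. Relative to the later step the change was higher for 1718 of 13884 genes (12.4%) and lower for 711 (5.12%). Relative to the earlier step it was higher for 427 (3.08%) and lower for 487 (3.51%), 6.58% in all, and without P10 replicate 4 these 2 numbers were 870 and 787. Leaving out any 1 of the P2 and P4 libraries gave 190 to 246 higher and 222 to 289 lower, with the lone library of an age assumed to vary like those of the other ages. P14 replicate 3 stood apart from P14 replicates 1 and 2. Rod phototransduction summed to 99600 CPM in it, against 197600 and 207500 CPM, and the nuclear respiratory chain list to 4074 CPM, against 11430 and 13170 CPM. Mitochondrial genes took 3.95% of its CPM, against 10.6 and 7.92%. Without it the change was higher than in the later step for 1885 genes and lower for 731. Of the 1009 genes called higher at P10, 243 had a larger rise in this step than in both others. Of the 1105 called lower, 182 had a larger fall than in both. Without P14 replicate 3 these were 255 and 181. The genes were chosen by the same change between P6 and P10 that enters both differences, which raises these numbers. No share over all genes was computed for both differences together, so the numbers do not set this step apart. A gene already near 0 CPM at P14 could hardly fall further, so for such genes the comparison with the later step is limited by the floor. After quantile normalization the difference from the later step was positive for 51.0% of calls, against 70.7% as deposited.

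Gnat1 and Guca1b changed more in this step than in either other step, and their levels were higher again at P14 and P28. Gnat1 averaged 9.07 CPM at P2, 20.7 at P4, 45.1 at P6, 5990 at P10, 20430 at P14 and 69100 at P28. Its change between P6 and P10 exceeded that between P2 and P4 by 5.74 ± 0.73 (SE, adjusted p = 0.000131) and that between P14 and P28 by 4.96. For Guca1b the differences were 6.11 and 4.29. Guca1b averaged 0.907 CPM at P2 and 1.24 CPM at P4, levels at which the scale understates a change. At P5, which was left out of the fit, Gnat1 averaged 20.6 CPM and Guca1b 20.2 CPM.

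Other genes had little further change in the same direction after P14, or turned back. Drd4 averaged 0.224 CPM at P2, 0.552 at P4, 0.746 at P6, 135 at P10, 285 at P14 and 230.5 at P28. At P5, which was left out of the fit, Drd4 averaged 8.96 CPM, above its level at P6. Its differences in the limma fit were 5.89 from the earlier and 6.52 from the later step (adjusted p = 5.54e-07 and 1.39e-08). Opn1mw averaged 15.3 CPM at P10, 42.1 at P14 and 9.40 at P28, with a difference of 5.80 from the later step, and the transporter Abca8a 45.2, 29.3 and 11.6 CPM at these ages, with a difference of 5.31. Both genes fell between P14 and P28, and that fall is part of these differences. Insm2 averaged 81.9 CPM at P2, 53.0 at P4, 58.2 at P6 and 0.751 at P10, with a difference of -4.79 from the later step. At P5 Insm2, Mki67 and Top2a averaged 2.60, 4.48 and 4.37 CPM, each below its level at P6. Mki67 and Top2a, which had already declined between P2 and P6, had differences of -4.39 and -3.79 from the later step. Insm2, Mki67 and Top2a averaged 0.198, 0.276 and 0.504 CPM at P14, so they could hardly fall further in the later step. Their differences therefore reflect the floor as well as the fall between P6 and P10. Drd4 was near 0 CPM at P2 and P4, where the scale understates a change.

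Among genes named for a difference from the earlier step, 3 neuronal genes changed direction. The kainate receptor subunit Grik1 averaged 0.392 CPM at P2, 11.7 at P4, 34.1 at P6, 11.5 at P10, 8.25 at P14 and 1.89 at P28, so that its difference from the earlier step was -4.67 ± 0.34 (SE, adjusted p = 6.93e-07). The adhesion gene Cntnap5a averaged 1.82 CPM at P2, 11.0 at P4, 15.6 at P6 and 2.06 at P10, with a difference of -4.52. Gabrr3, a GABA receptor subunit, averaged 0.567 CPM at P2, 12.4 at P4, 16.0 at P6 and 5.49 at P10, with a difference of -4.50. All 3 were called lower at P10 than at P6, with changes of -1.49, -2.43 and -1.40.

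**Figure D5:**
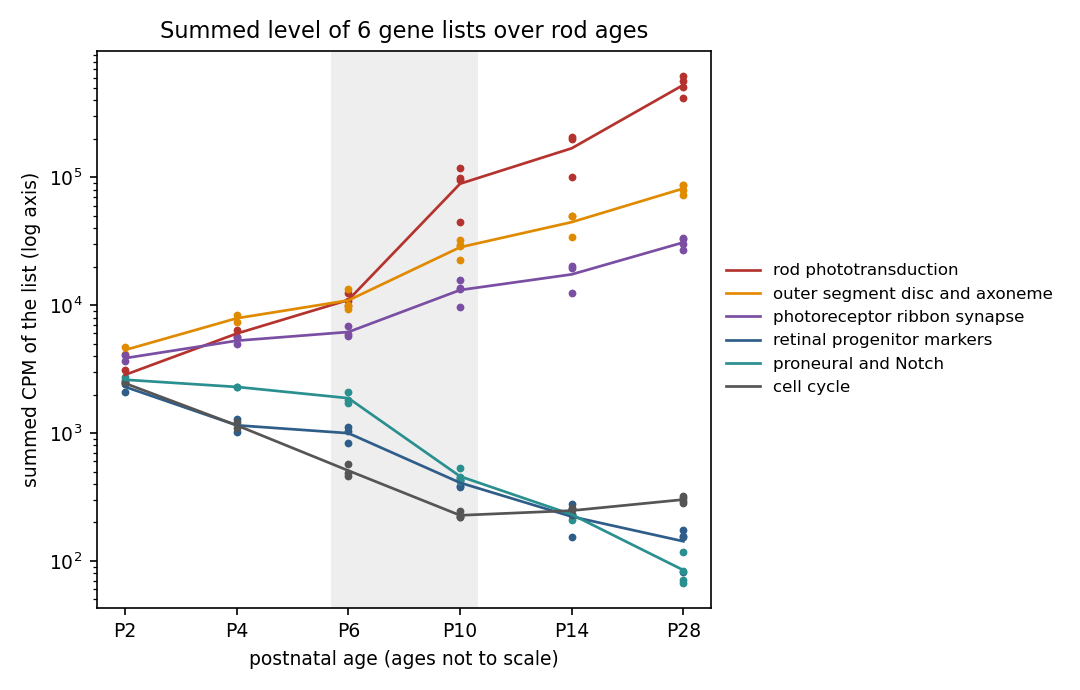
Summed CPM (log axis) of 6 gene lists in rods from P2 to P28, with points for libraries and lines through the means of each age. P5 rods are not shown. Ages are evenly spaced and the step between P6 and P10 is shaded. Rod phototransduction is at 44380 to 117500 CPM at P10, against 9859 to 12330 CPM at P6, while the proneural and Notch list is at 420 to 533 CPM, against 1708 to 2097 CPM.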

How the data were processed

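Per the submitters' processing notes the authors used kallisto to quantify RNA of these sorted mouse rods; its version and index, the genome build, the strand setting and the scaling were each not given in the sources used here. The deposited values are a normalized CPM signal whose columns do not share a sum, so they were treated as normalized signal and not as counts, and no depth or counting interval can be given. All 33 columns matched a label (0 unused). Gene IDs were matched to GENCODE M21 (GRCm38), 15144 of them (99.05%); 202 genes share a symbol with another gene.

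Values were analysed as log2(CPM + 1) with limma 3.58.1 in R 4.3.3 (trended variance prior, Benjamini-Hochberg adjustment), for genes of at least 1 CPM in 3 of the 7 libraries, or in 2 libraries for differences between steps. Calls needed an adjusted p under 0.05 and a 2-fold change. Single sums were compared by an exact two-sided permutation test over libraries. On simulated data with 13159 genes, 89.6% of 3-fold changes and 97.0% of 5-fold changes between the ages were recovered, with 8 false calls. The simulated noise was independent between genes, and the changes were few and not placed in genes of the lowest levels. No simulated library was shifted across many genes as P10 replicate 4 was, so these figures may not carry over to the calls. Named genes are fixed rod genes, the 12 largest calls in each direction without overlap and with a mean of at least 10 CPM in either age, up to 4 called members of each list with the largest change and those against its direction, the 3 largest step differences each way, and the 5 genes farthest above and below the other P10 libraries in P10 replicate 4. Other members given in the text, called or not, were chosen after their values were seen. Some genes that meet these rules are not reported here. The members and the 33 lists (499 genes, 476 tested) were chosen with earlier results of these data known. Genes with near-identical copies, such as the mitochondrial genes, Hmgn1, Ndufa4, Cox6c and haemoglobin genes, are uncertain, as are genes that overlap others. Alternatives covered the pseudocount, filter, scaling, variance model, fold threshold, replicate block, trends on GC content and transcript length, and leaving out each library. Promoters are from RefSeq (GRCm38.p6).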

Additional observations from a re-analysis of the deposited data

Results flagged for a closer look

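Within the 4 P10 libraries, 1 library lay far from the other 3 (Dixon's criterion at 95%) for 1104 of 13159 genes (8.39%), and in 848 of these it was P10 replicate 4. Chance alone marks about 1 in 20 groups. Among the values in the text, P10 replicate 4 was lowest for Gnat1 (1682 CPM), Drd4 (80.3 CPM), Slc24a1 (544.1 CPM), Kcnj14 (33.84 CPM), Esrrb (165.3 CPM), Slc17a7 (836.2 CPM), Calb2 (9.162 CPM), the small heat shock protein Cryab (10.07 CPM) and Pcp4l1 (7.846 CPM). It was highest for Mycl (6.373 CPM), Otx2 (527 CPM), Ptbp2 (207.8 CPM), Egr2 (6.55 CPM), Cp (48.39 CPM), Pde5a (74.83 CPM), Adnp (72.92 CPM), Zfp697 (24.43 CPM), Leng8 (489 CPM) and Focad (88.99 CPM). Of the summed lists it was highest for the cilium (7733 CPM), mitochondrial biogenesis (442.7 CPM) and the circadian clock (1033 CPM), and lowest for amacrine, horizontal and ganglion markers (171.7 CPM).

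P10 replicate 2 stood apart as highest for Crx (2219 CPM) and for the summed cell cycle list (246.2 CPM), and as lowest for the summed red blood cell markers (3.929 CPM). P10 replicate 3 was lowest for Uhrf1 (0.0919 CPM) and highest for Gad2 (7.016 CPM).

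By the limma test of the difference itself, the change between P6 and P10 differed from that between P14 and P28 for Drd4 (6.52), Opn1mw (5.80), Abca8a (5.31), Insm2 (-4.79), Mki67 (-4.39) and Top2a (-3.79). It differed from that between P2 and P4 for Guca1b (6.11), Drd4 (5.89), Gnat1 (5.74), Grik1 (-4.67), Cntnap5a (-4.52) and Gabrr3 (-4.50). The adjusted p of these 12 differences ran from 1.39e-08 to 0.000131. Insm2, Mki67 and Top2a were near 0 CPM at P14 and could hardly fall further in the later step. Opn1mw and Abca8a were lower at P28 than at P14, and that fall is part of their differences.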

How the results depend on the processing

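The numbers of genes called higher and lower between P10 and P6 rods moved with the fold threshold, the scaling and the libraries used. They were 452 and 2455 under equal column sums, and 548 and 2150 with mitochondrial genes removed first, but 1047 and 1003 after quantile normalization. With no fold threshold they were 1835 and 2110, and with a 4-fold threshold 172 and 167. With a pseudocount of 5, 565 genes were lower. Leaving out P6 replicate 1 and P10 replicate 4 together, a choice made after seeing the data, gave 1529 higher. Leaving out each P10 or P6 library gave 744 to 1452 higher and 891 to 1514 lower. Against the P14 to P28 step, the genes called lower were 1113 after quantile normalization and 1275 with no fold threshold. Leaving out each library of the 4 ages gave 1545 to 1885 higher and 664 to 795 lower against that step. Against the P2 to P4 step it gave 190 to 870 higher and 222 to 787 lower, with the highest of both without P10 replicate 4 and the lowest without P2 replicate 1. Leaving out P2, P4, P14 or P28 libraries was chosen after seeing the data. Except without P10 replicate 4, without a P2 or P4 library and under the settings named here, the counts stayed within 1.5 times.

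The direction turned for Crx (-0.70 after quantile normalization, -0.17 under equal column sums, -0.0705 with mitochondrial genes removed first), for Nr2e3 (-0.60 and -0.0536 under the first 2 of these) and for mt-Co3 (-0.50 after quantile normalization); none of the 3 was called with all 7 libraries, and mt-Co3 was called without P10 replicate 4 (1.78, adjusted p = 0.00216). Of 132 named genes, 68 kept their call under every alternative tried, and the 4-fold threshold ended 54 calls by its construction. The cause of the other changes was not tested.

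Replicate numbers did not pair the libraries: same-numbered P10 and P6 libraries had correlations of deviations of 0.172, 0.0216 and -0.102. With the replicate block 1454 genes were higher and 1525 lower, and P10 replicate 4, which has no P6 partner, does not contribute to that fit. The block gave 1711 and 711 against the later step and 476 and 470 against the earlier step. Without read counts, what depth limits cannot be given, and differences in genes near 1 CPM are the least certain.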
